A study of Mus musculus with 6 samples.

Results

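The genes of vascular endothelial growth factor (VEGF) signalling that act at the cell surface were followed in single cells of mouse retina, namely the ligands Vegfa, Vegfb, Vegfc and Pgf, the receptors Flt1, Kdr and Flt4, and the co-receptors Nrp1 and Nrp2. These 9 genes were chosen by name for their place in the pathway and make up 9 of the 20822 genes of the deposited table, and all 9 had UMIs. The cells came from retinas of pups at P14 in oxygen-induced retinopathy (OIR), a model in which 75% oxygen from P7 to P12 removes capillaries and the return to room air drives the growth of vessels. Control pups (eNOS+/+) were C57BL/6J, and eNOS-/- pups were homozygous for a Nos3 knockout allele backcrossed to C57BL/6J. This deletion is present in every cell and is not limited to endothelial cells (ECs). All pups were raised by CD1 foster mothers and went through the same oxygen exposure, so there was no group kept in room air. Each genotype had 3 replicates, each a pool of 3 to 5 retinas, enriched for ECs with beads against CD31 and processed by Drop-seq, which reads the 3′ end of each mRNA and counts unique molecular identifiers (UMIs).

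VEGF ligands are secreted proteins that bind receptor tyrosine kinases on the endothelium. Vegfa binds both Kdr (VEGFR2), which carries most of the growth, migration and permeability signal, and Flt1 (VEGFR1), which binds it tightly and, as a membrane or a soluble protein, limits what reaches Kdr. Pgf and Vegfb bind Flt1, and Vegfc binds Flt4 (VEGFR3) and, once processed, Kdr. Nrp1 and Nrp2 have no kinase of their own and present ligands to Kdr and Flt4. In the retina, neurons and glia that lack oxygen release Vegfa, and tip ECs at the vascular front follow it. eNOS, encoded by Nos3, lies downstream of Kdr and makes nitric oxide.

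The sequence upstream of the start is shown for Vegfa, the ligand found in Neuroglia, and for Kdr, Flt1 and Flt4, the receptors enriched in ECs. The sequences are those of RefSeq on GRCm38.p6, the 250 bases before the first listed start, read 5′ to 3′ on the strand of the gene. Gene spans given below are those of GENCODE, whose start can differ from that of RefSeq. The Flt4 window lies inside the GENCODE span of Flt4, and the Kdr window overlaps the edge of the span of Kdr. Capitals mark GC boxes, written GGGCGG on either strand. The window of Vegfa is chr17:46032378-46032627 on the minus strand, that of Kdr is chr5:75978456-75978705 on the minus strand, that of Flt1 is chr5:147726012-147726261 on the minus strand and that of Flt4 is chr11:49609429-49609678 on the plus strand.
Vegfa: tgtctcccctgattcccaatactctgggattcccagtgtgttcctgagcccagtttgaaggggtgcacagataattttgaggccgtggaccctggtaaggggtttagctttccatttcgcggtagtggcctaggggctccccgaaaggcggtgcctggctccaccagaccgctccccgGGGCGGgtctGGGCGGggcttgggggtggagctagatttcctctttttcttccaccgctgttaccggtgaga
Kdr: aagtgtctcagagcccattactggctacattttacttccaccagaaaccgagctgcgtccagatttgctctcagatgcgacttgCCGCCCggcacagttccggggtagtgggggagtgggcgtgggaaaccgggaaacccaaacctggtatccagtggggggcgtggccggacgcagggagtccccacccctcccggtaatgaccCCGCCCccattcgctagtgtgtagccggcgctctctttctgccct
Flt1: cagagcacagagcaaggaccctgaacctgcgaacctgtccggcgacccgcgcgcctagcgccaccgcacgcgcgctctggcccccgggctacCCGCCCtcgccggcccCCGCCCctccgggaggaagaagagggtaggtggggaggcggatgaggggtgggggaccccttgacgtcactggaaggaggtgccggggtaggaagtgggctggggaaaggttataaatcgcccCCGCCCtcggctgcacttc
Flt4: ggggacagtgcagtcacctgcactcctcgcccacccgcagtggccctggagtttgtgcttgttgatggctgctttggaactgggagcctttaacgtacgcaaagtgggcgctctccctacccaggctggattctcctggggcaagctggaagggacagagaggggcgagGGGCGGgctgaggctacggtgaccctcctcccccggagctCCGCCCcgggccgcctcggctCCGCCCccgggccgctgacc
At least 1 GC box was found in the first listed window of all 9 genes, from 1 in Nrp1 to 5 in Nrp2, whereas 32.7% of all 32851 windows of the table held one. The GC content of these 9 windows lay between 59.2% (Vegfa) and 76.4% (Vegfb), above the median of 52.4% over all windows. The letters of a hypoxia response element (ACGTG) were in none of the 4 windows shown and in 16.6% of all windows. A second listed window of Vegfa, chr17:46025164-46025413 and not shown, held 1. Of the ETS-type motifs, CAGGAA was found 1 time in Vegfa and CCGGAA 1 time in Kdr, against 25.7% and 12% of all windows. These matches describe letters in a window and say nothing of binding.

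The table held 8944 cells of 10 deposited cell types, of which 5925 were ECs divided into Tip, Structural and Proliferative ECs. The replicates had 415 to 3710 cells and 617246 to 3350799 UMIs, and the summed UMIs of all ECs lay between 488367 and 2425603 per replicate. Sums were made for each cell type and replicate, and a level is given as UMIs of a gene per 1000000 UMIs of the sum (CPM), from sums of at least 10 cells. Of the marker genes chosen for the cell types, all were highest in their own type except Pax6 among the 7 markers of Neurons. The cell types had been assigned from the same UMIs, so levels are compared between cell types as a description and without a test. Grouped within a replicate by their first 11 of 12 bases, all 8944 barcodes gave 6900 families, single barcodes included. Of the barcodes, 2874 were in families of 2 or more, so some cells may be counted more than once. In a further library field of the annotation, 613 cells of eNOS+/+ replicate 2 carry the name of the library of eNOS+/+ replicate 1, and the replicate field was followed here. Nos3, the targeted gene, had 19.4, 36.6 and 23.6 CPM in all ECs of the replicates labelled eNOS+/+ and 21.2, 16.1 and 32.8 CPM in those labelled eNOS-/-. The groups overlap, so the counts of Nos3 do not check the genotype labels.

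Among the ligands, Vegfa (chromosome 17 of GRCm38, 46016993 to 46032369, minus strand) was found mainly in Neuroglia, which carry markers of Müller glia such as Glul and Rlbp1. Its level there was 3342, 1436 and 1076 CPM in the eNOS+/+ replicates and 2330 and 2584 CPM in the eNOS-/- replicates with such cells. Every one of these 5 values lay above all values of the other cell types, and the mean (2154 ± 909 CPM, SD, n = 5) was 11.3 times that of the next type, the single sum of Cones with 190.0 CPM. Neurons followed with 336, 193 and 138 CPM in eNOS+/+ and 216, 243 and 0 CPM in eNOS-/-, where the last sum held 10 cells. Optc+ cells had 114 ± 113 CPM (SD, n = 5), and from Cones downward each type overlapped with the next.

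Vegfa was close to absent from the ECs that carry its receptors. Tip ECs had 0 to 12.6 CPM, Structural ECs 0 to 22.4 CPM, and Proliferative ECs held 1 UMI in all 1162 cells. In single cells, 91 of 184 Neuroglia had a Vegfa UMI (49.5%, 95% Wilson interval 42.3 to 56.6, median 541 UMIs per cell). The share in rods, taken as a rough measure of free RNA, was 1.19% at a median of 361 UMIs, and in Tip ECs it was 1.26% at a median of 1007 UMIs. To compare shares at equal depth, the 4861 cells with at least 500 UMIs were drawn down to 500 UMIs each and shallower cells were left out, which kept 98 of 184 Neuroglia, 421 of 1508 rods and 1091 of 1428 Tip ECs. In these cells, a different set from all cells, the shares were 60.2% in Neuroglia (50.3 to 69.3), 9.69% in Neurons, 0.24% in rods and 0.27% in Tip ECs, so the EC share was at the level of rods. Intervals cover counting error only.

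Within Neuroglia, cells with a UMI of Glul, Rlbp1, Slc1a3, Aqp4 or Clu had Vegfa more often than cells without it, and cells with Gfap did not. Vegfa was found in 56.3% of the 151 cells with Glul, the glutamine synthetase, and in 18.2% of the 33 cells without it, with pooled levels of 2553 and 1113 CPM. With Aqp4, the water channel of glial endfeet, the shares were 77.6% of 49 cells and 39.3% of 135 cells, with 2874 and 2147 CPM. With Slc1a3, a glutamate transporter, the shares were 58.0% of 112 cells and 36.1% of 72 cells, but the pooled levels were closer, at 2502 and 2113 CPM. With Clu, clusterin, the shares were 66.4% of 116 cells and 20.6% of 68 cells, with 2724 and 1355 CPM. Gfap, the intermediate filament of astrocytes and of reactive glia, was found in only 10 of the 184 cells. Vegfa was lower with it, in 40% of these cells against 50% of the 174 without it. The pooled levels were 1024 and 2516 CPM, the first resting on 9 UMIs. Cells with more UMIs are more likely to hold both genes, and no test was made. In Neurons, the pooled Vegfa level was 212 CPM in the 421 cells with Trpm1, a gene of ON bipolar cells, and 288 CPM in the 269 cells without it.

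Vegfb (chromosome 19, 6982473 to 6987651, minus strand) was low throughout. Its highest mean was 39.4 ± 34.7 CPM (SD, n = 5) in Optc+ cells, and all cell types down the order overlapped with the next. It had UMIs in 33 of 5925 ECs (0.56%) and in 0 of 184 Neuroglia, which allows a share of cells with a UMI of up to 1.63% (3 counts of the total, here and below, a limit on detection at this depth and not on expression). The depth did not allow an order of cell types for this ligand.

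Vegfc (chromosome 8, 54077606 to 54187096, plus strand) was found almost entirely in ECs that are not Tip ECs. Its level in Structural ECs was 20.0, 48.6 and 37.8 CPM in eNOS+/+ and 24.4, 24.1 and 33.6 CPM in eNOS-/-, and in Proliferative ECs 29.0, 49.5, 47.3 and 23.9, 10.1, 115 CPM. In Tip ECs it was 0, 0, 4.2 and 2.0, 4.2, 0 CPM, lower than in either other subtype in 6 of 6 replicates. Outside ECs, 0 UMIs were found in 1508 rods, which allows a share with a UMI of up to 0.199%, and 4 UMI-bearing cells were found in all other types together. The shares of cells were small everywhere, with 2.70% of Structural ECs, 4.04% of Proliferative ECs and 0.42% of Tip ECs. In cells of at least 500 UMIs drawn down to 500 these were 1.21%, 1.12% and 0.18%, so the subtypes other than Tip were alike in share at equal depth within their intervals.

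Pgf (chromosome 12, 85166635 to 85177790, minus strand), placental growth factor, had the opposite place among ECs. Tip ECs had 83.0, 21.4 and 75.7 CPM in eNOS+/+ and 85.7, 89.4 and 56.1 CPM in eNOS-/-, more than Structural ECs of the same replicate in 6 of 6 replicates. Structural ECs had 2.50, 4.05 and 5.04 CPM in eNOS+/+ and 7.86, 10.7 and 37.4 CPM in eNOS-/-. The ratio of Tip to Structural ECs ranged from 1.5 to 33.2 with a median of 9.62. Mural cells, the pericytes and smooth muscle cells of the vessel wall, had a mean of 96.5 ± 47.9 CPM (SD, n = 5) that overlapped with Tip ECs. The Mural marker Rgs5 ranged from 12.5 to 3012 CPM (median 62.0) over the sums of Structural ECs. The part of Mural RNA in the Pgf level of ECs was not tested. Pgf was found in 23 of 214 Mural cells (10.7%), and 6 of those 23 cells had no UMI of an EC marker other than Pecam1. In the 122 Mural cells without such an EC marker the pooled level was 89.2 CPM, against 105 CPM in all Mural cells. Neuroglia and Neurons, the main sources of Vegfa, held 0 UMIs of Pgf in 184 and 690 cells, which allows shares with a UMI of up to 1.63% and 0.435%.

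**Figure D1:**
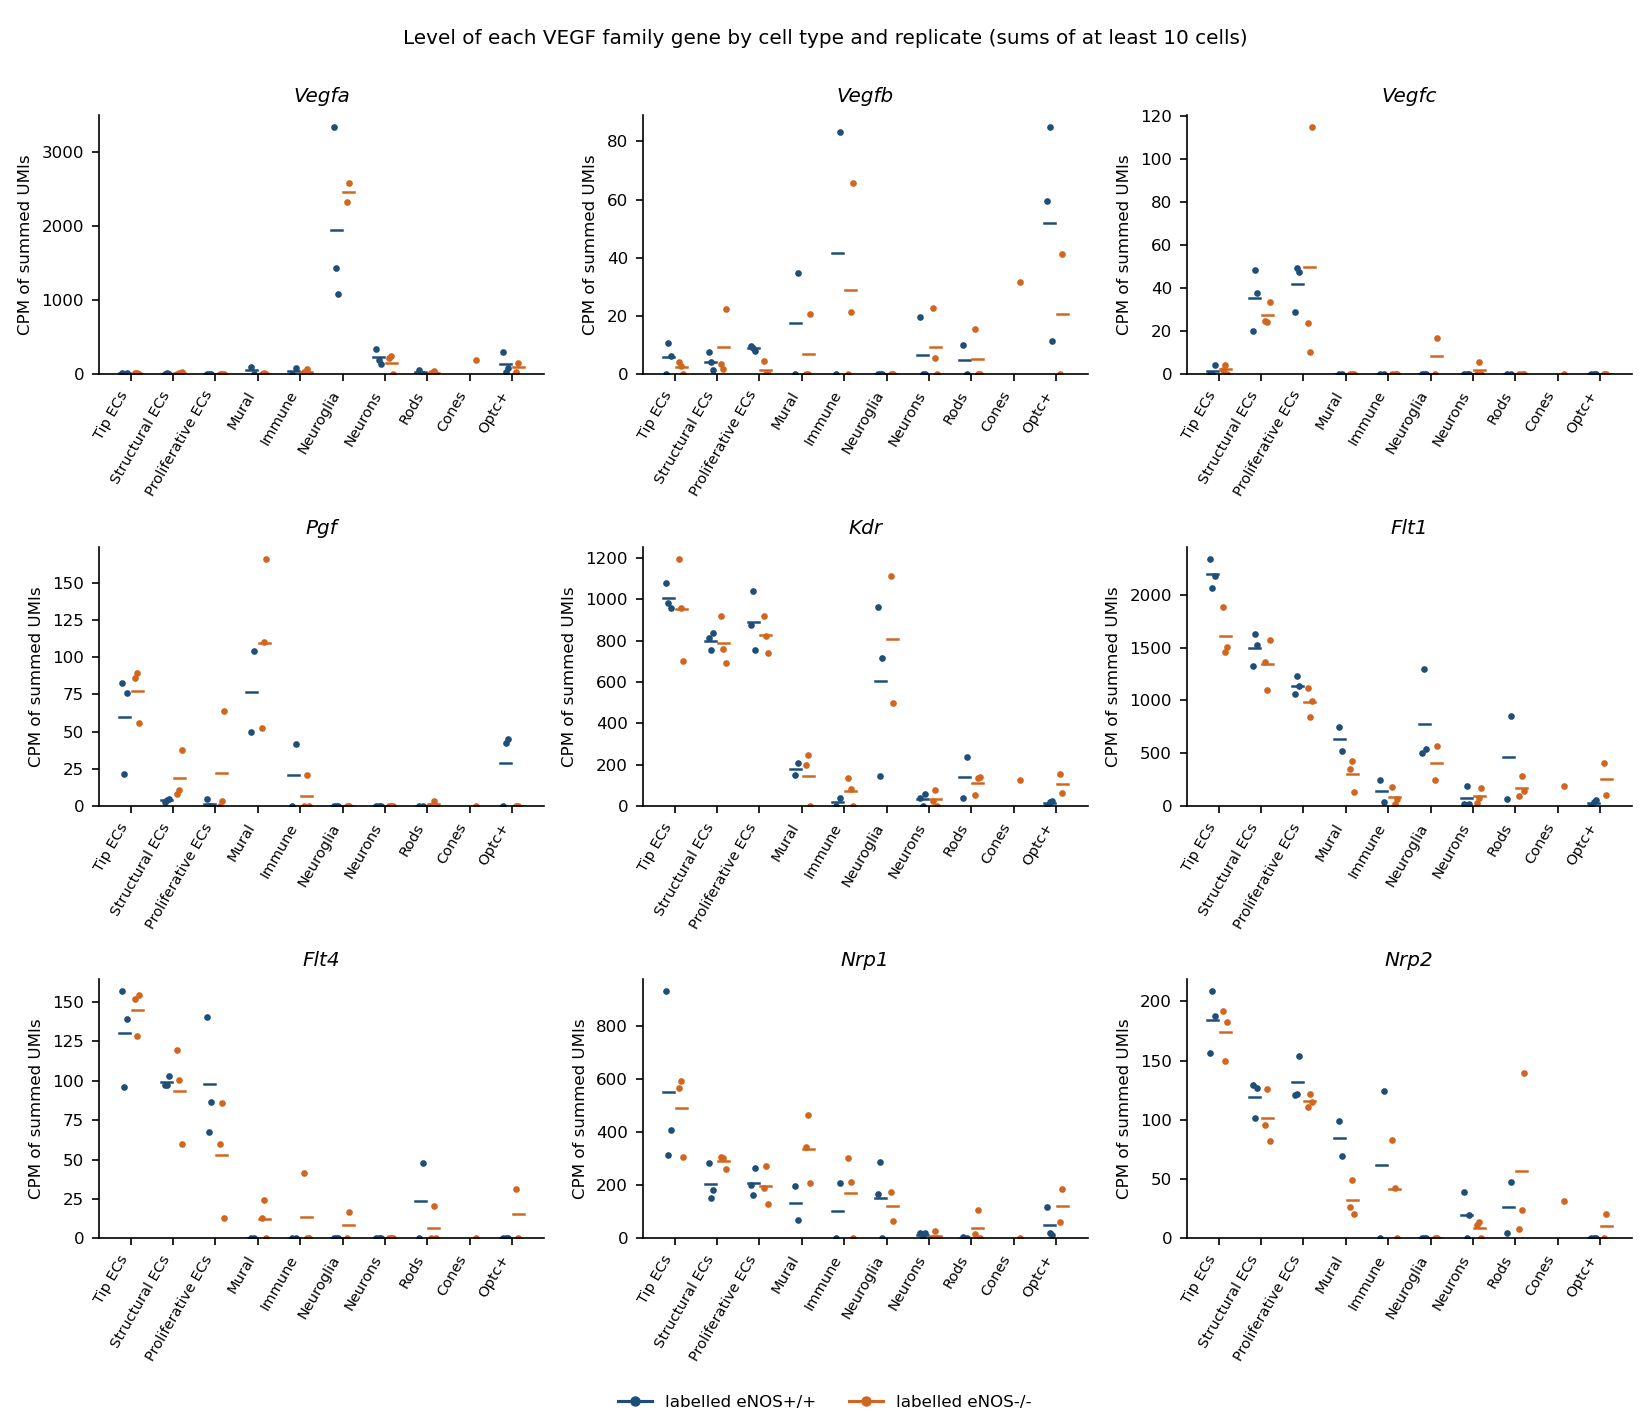
CPM of the 9 genes in the 10 cell types, with 1 point per replicate (sums of at least 10 cells) and a line at the mean of each genotype. Vegfa stands out in Neuroglia (1076 to 3342 CPM), Vegfc is found in Structural and Proliferative ECs, Pgf in Tip ECs and Mural cells, and the receptors mainly in ECs, with Kdr also in Neuroglia.

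The receptors were enriched in ECs, each with its own order of the subtypes. Kdr (chromosome 5, 75932827 to 75978458, minus strand) had 1078, 983 and 959 CPM in Tip ECs of eNOS+/+ and 1195, 957 and 701 CPM in those of eNOS-/-. In Structural ECs it had 814, 753 and 835 CPM against 919, 760 and 691 CPM. The value was higher in Tip than in Structural ECs in 6 of 6 replicates, but by a median ratio of only 1.28 (1.01 to 1.33), and the groups of replicates overlapped. Proliferative ECs had 859 ± 111.3 CPM (SD, n = 6), so all EC subtypes carried the main VEGF receptor, and the ratio of the means of Tip and Structural ECs was 1.23.

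Flt1 (chromosome 5, 147561604 to 147726011, minus strand) showed a wider range. Tip ECs had 2337, 2067 and 2178 CPM in eNOS+/+ and 1883, 1456 and 1501 CPM in eNOS-/-. Structural ECs had 1418 ± 197 CPM and Proliferative ECs 1063 ± 133 CPM (SD, n = 6). Proliferative ECs were below Tip ECs and below Structural ECs in 6 of 6 replicates each, with median ratios of 1.71 (Tip over Proliferative) and 1.31 (Structural over Proliferative). Tip ECs exceeded Structural ECs in 5 of 6 replicates.

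Flt4 (chromosome 11, 49609263 to 49652739, plus strand), the receptor of Vegfc, stood at 0% to 13.2% of its EC level in Neuroglia, Mural, Immune, Neurons and rods, the narrowest range of the 3 receptors. Tip ECs had 157, 96.2 and 139 CPM in eNOS+/+ and 152, 129 and 154 CPM in eNOS-/-. It was higher in Tip than in Proliferative ECs in 6 of 6 replicates and higher than in Structural ECs in 5 of 6, with the lowest value of Proliferative ECs (12.8 CPM) resting on 1 UMI. Flt4 was highest in the subtype with the least Vegfc. Outside ECs the mean of no type exceeded 13.6 CPM, and Neurons held 0 UMIs in 690 cells, which allows a share with a UMI of up to 0.435%.

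The neuropilins were highest in Tip ECs. Nrp1 (chromosome 8, 128358604 to 128503363, plus strand) had 931, 315 and 408 CPM in Tip ECs of eNOS+/+ and 568, 593 and 309 CPM in those of eNOS-/-, the widest spread relative to the mean among the receptors and neuropilins in Tip ECs. It was above Structural ECs and above Proliferative ECs of the same replicate in 6 of 6 replicates, with median ratios of 2.0 and 2.3. Nrp2 (chromosome 1, 62703285 to 62818695, plus strand) had 157, 208 and 187 CPM against 191, 150 and 182 CPM in Tip ECs. It too was higher there than in both other subtypes in 6 of 6 replicates, with median ratios of 1.73 (Structural) and 1.44 (Proliferative). Structural and Proliferative ECs overlapped for both neuropilins.

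**Figure D2:**
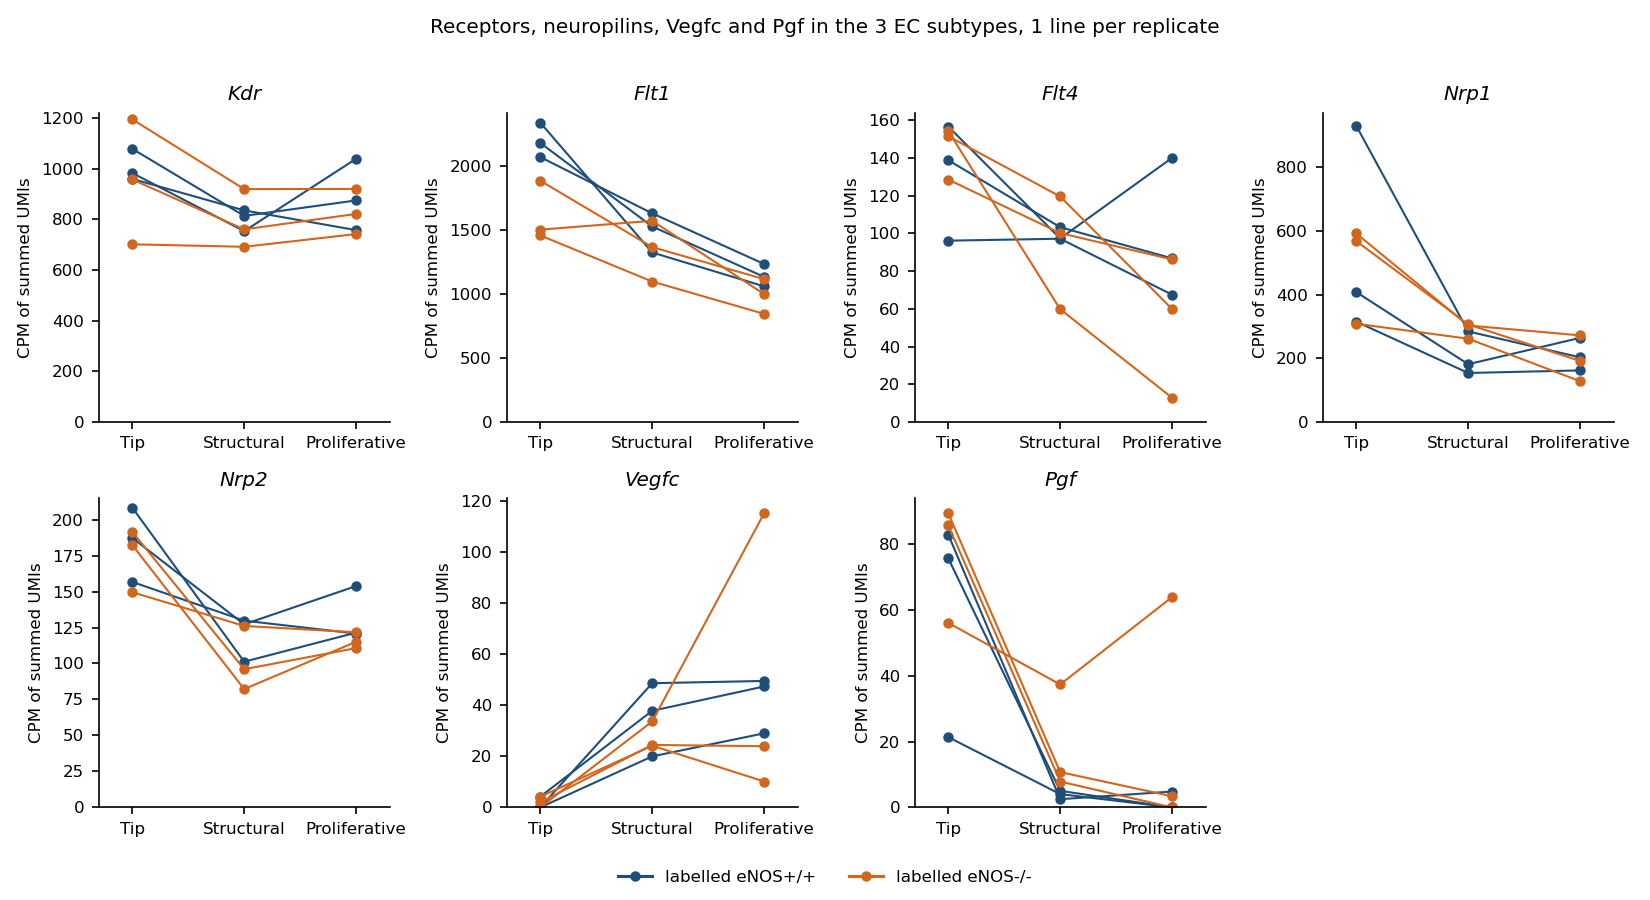
CPM of the receptors, neuropilins, Vegfc and Pgf in the 3 EC subtypes, with a line for each of the 6 replicates coloured by genotype. Nrp1, Nrp2 and Pgf drop from Tip to Structural ECs in every replicate, Vegfc goes the other way in every replicate, and Kdr is nearly level.

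Outside ECs the receptors differed from each other in where they were found. Kdr had 961, 144 and 717 CPM in Neuroglia of eNOS+/+ and 1113 and 500 CPM in those of eNOS-/-, a mean of 79.4% of the level in all ECs, where the 144 CPM rest on 1 UMI. Flt1 reached 42.8% and Nrp1 44.7% of the EC level in the same cells. Nrp1 rests on 15 UMIs in 12 of the 184 cells, with 0 to 287 CPM per replicate and a pooled level of 110 CPM. The 8 EC markers were lower in Neuroglia. Their summed level in Neuroglia was 501 to 718 CPM per replicate against 5434 to 6481 CPM in all ECs, none of the 8 was at 0, and Cdh5, Cldn5, Tie1, Tek, Egfl7, Emcn and Esam stood at 2.22% to 9.61% of their EC level. Pecam1, the gene of the CD31 protein used for the enrichment, stood at 31.8%. In the 163 Neuroglia without a UMI of any of these markers other than Pecam1, the pooled level of Kdr was 746 CPM and that of Flt1 512 CPM, against 719 and 521 CPM in all 184 cells. Nrp2 and Flt4, which ECs also carry, had 0 UMIs and 1 UMI in Neuroglia.

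Kdr was found in 50 of 184 Neuroglia (27.2%, 21.3 to 34.0) and Flt1 in 39 (21.2%, 15.9 to 27.7), against 3.18% and 6.50% of rods. At 500 UMIs per cell, Kdr was found in 25.5% of Neuroglia (17.9 to 35.0), 28.7% of Structural ECs (26.5 to 30.9), 6.80% of Mural cells and 1.43% of rods. The cells with Kdr were largely those with Vegfa, as 39 of the 50 had both. Cells with Vegfa also held more UMIs, with a median of 729 against 348 in those without, and what depth adds to this overlap was not tested. Kdr was found in 46.9% of the 49 Neuroglia with Aqp4 and 20.0% of the 135 without it, and in 40.2% of the 112 with the glutamate transporter Slc1a3 and 6.94% of the 72 without it.

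In Mural cells the gene that came nearest to its EC level was Nrp1, at 82.5%, with 46 of 214 cells (21.5%, 16.5 to 27.5). Flt1 was found in 47 of 214 (22.0%) and reached 29.8% of the EC level. EC markers were also present, as only 122 of the 214 Mural cells were free of UMIs of the EC markers other than Pecam1, and Emcn and Esam stood at 47.2% and 43.5% of their EC level. Of the 46 cells with Nrp1, 38 had such a marker, and in the 122 cells without one the pooled level of Nrp1 was 89.2 CPM against 290 CPM in all Mural cells. For Flt1 the same pooled levels were 317 and 363 CPM. Of its 114 UMIs, 32 were in those 122 cells, and 29 of the 47 cells with Flt1 had such a marker. For Kdr the pooled levels were 49.6 and 146 CPM. Cells with and without a marker were not matched in depth. The summed level of the 8 EC markers was 964 to 1766 CPM per replicate in Mural cells, and their part in these levels was not tested further.

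In Immune cells, which hold microglia and macrophages, Nrp1 was found in 27 of 216 cells (12.5%, 8.73 to 17.6), of which 21 had no EC marker other than Pecam1. The pooled level in the 194 cells without such a marker was 197 CPM, against 221 CPM in all Immune cells. At 500 UMIs per cell, 11.4% of Immune cells had Nrp1, against 11.2% of Structural ECs, 8.80% of Proliferative ECs and 2.85% of rods. By replicate the level varied, with 0 and 208 CPM in eNOS+/+ and 303, 212 and 0 CPM in eNOS-/-. Kdr in Immune cells went from 89.6 CPM to 22.8 CPM when cells with an EC marker other than Pecam1 were left out.

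**Figure D3:**
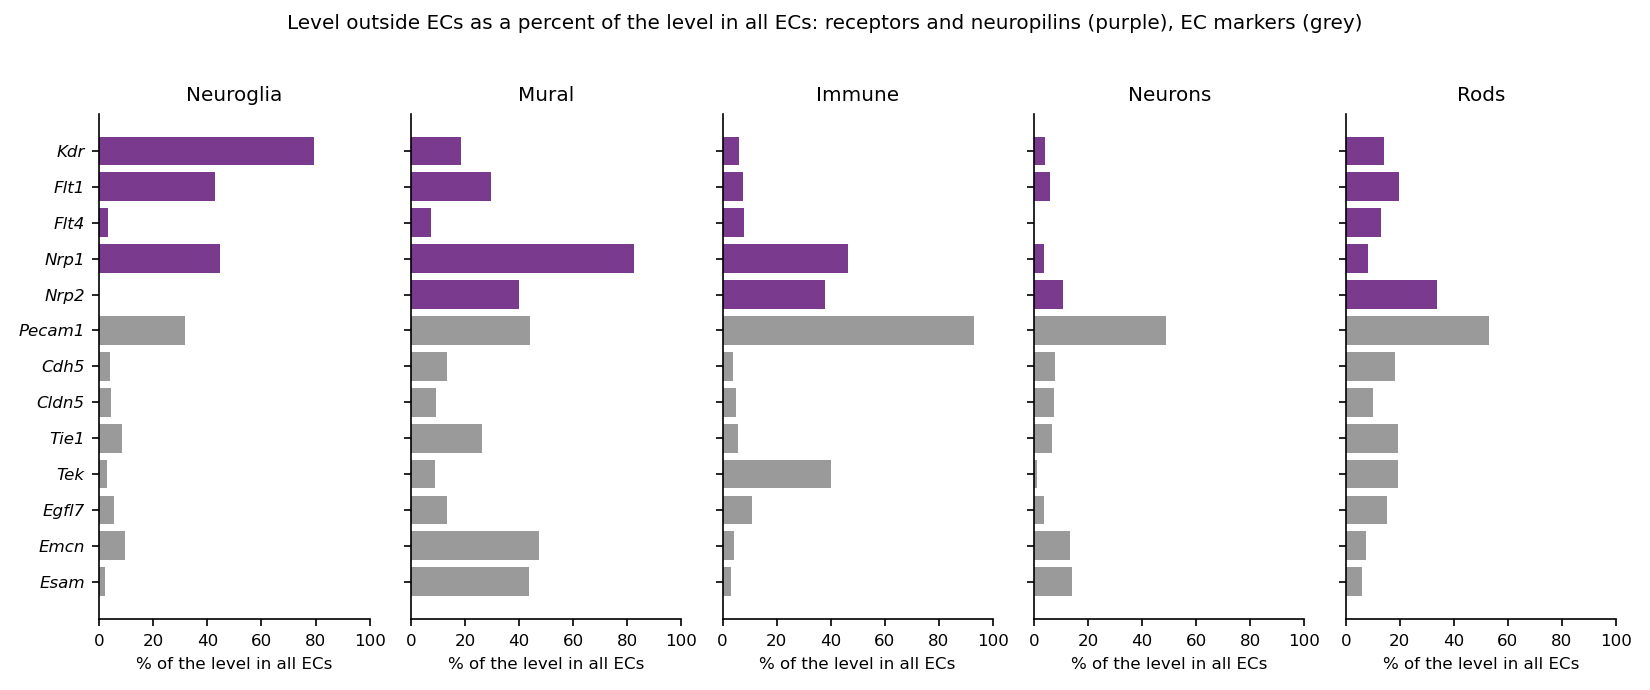
Mean level in 5 cell types outside ECs as a percent of the mean level in all ECs, for the receptors and neuropilins (purple) and 8 EC markers (grey). In Neuroglia, Kdr (79.4%), Nrp1 (44.7%, from 15 UMIs) and Flt1 (42.8%) stand above all 8 markers, of which Pecam1 is at 31.8%. In Mural cells Emcn and Esam reach over 40% beside Nrp1 at 82.5%.

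Rods were taken as a rough measure of free EC RNA, but the source of EC transcripts in them was not tested. Their summed level of the 8 EC markers varied from 557 to 2953 CPM per replicate. Rods held 39.5 to 238 CPM of Kdr and 64.1 to 857 CPM of Flt1. In rods the receptors stood at 8.08% (Nrp1) to 33.8% (Nrp2) of their EC level and the EC markers other than Pecam1 at 5.98% to 19.4%. The value of Nrp2 rests on 11 UMIs in 1508 rods, with 4.93 to 139 CPM per sum. Its pooled level in rods was 16.8 CPM, against a mean of 132 CPM in all ECs. Receptor levels in rods, Neurons and Optc+ cells overlapped with each other.

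In single ECs the receptors were found together in a minority of cells, as the depth allows. Of 5925 ECs, 3545 had at least 500 UMIs, and after these were drawn down to 500 UMIs, 31.8% had Kdr, 44.2% had Flt1 and 15.7% had both. Kdr was found in 35.5% of ECs with Flt1 and in 29.0% of those without it. Nrp1 was found in 13.3% of ECs, and Kdr in 39.1% of these. Flt4 and Nrp2, the pair that binds Vegfc, were found together in 10 ECs, and Flt4 in 4.46% of ECs with Nrp2 and 4.91% of those without. Of the 40 Tip ECs with Pgf at this depth, 32 also had its receptor Flt1 (80.0%), against 51.9% of the Tip ECs without Pgf.

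By subtype at equal depth, the share of cells with Flt1 was 52.9% in Tip ECs (49.9 to 55.8), 43.0% in Structural ECs (40.6 to 45.4) and 35.1% in Proliferative ECs (31.9 to 38.4). Nrp1 went from 19.7% of Tip ECs to 11.2% of Structural and 8.80% of Proliferative ECs. For Kdr the shares were 37.5%, 28.7% and 30.7%. In all cells at their own depth, Kdr was found in 56.7% of Tip ECs (median 1007 UMIs) and 36.5% of Structural ECs (median 491 UMIs), a wider gap than at equal depth.

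**Figure D4:**
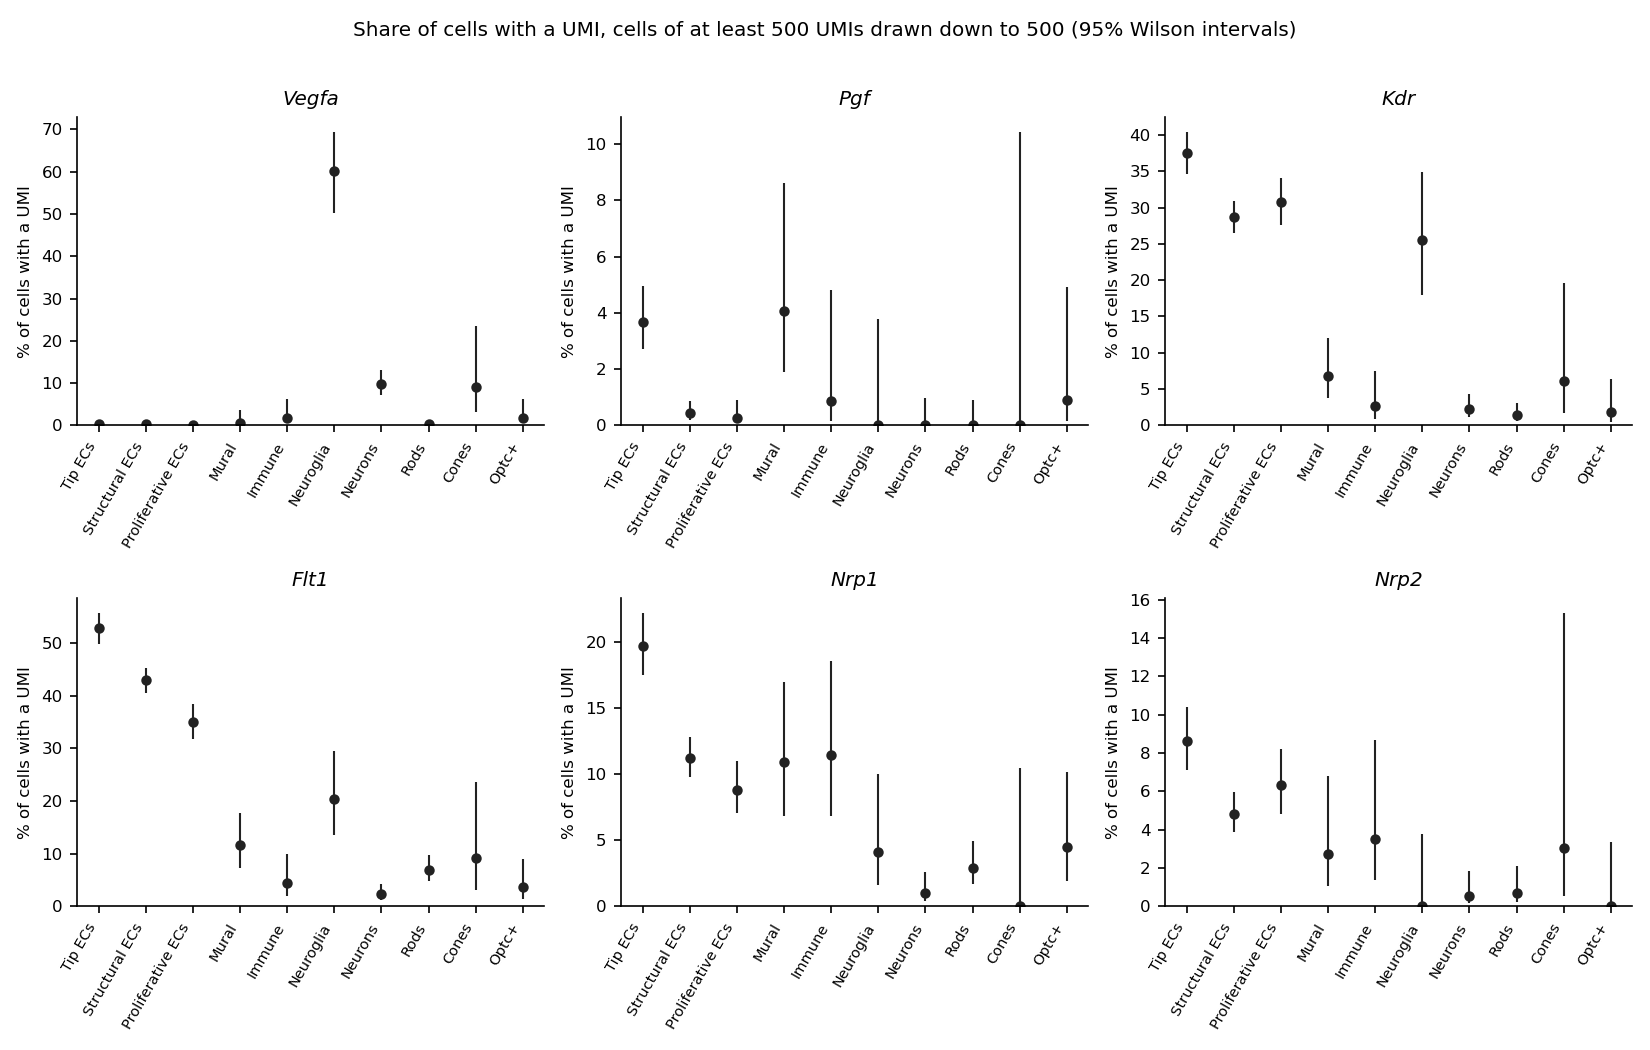
Percent of cells with at least 1 UMI of 6 genes in each cell type, for cells of at least 500 UMIs drawn down to 500 UMIs, with 95% Wilson intervals for counting error. Vegfa is found in 60.2% of Neuroglia and 0.27% of Tip ECs, and Kdr in 25.5% of Neuroglia, between Mural cells (6.80%) and Structural ECs (28.7%).

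The genotypes were compared to ask whether loss of eNOS, which acts below Kdr, went with another level of the ligands or receptors. For every cell type with at least 2 sums per genotype, a quasi-likelihood model (edgeR) was fitted over all genes that passed the filter on low counts. In all ECs 7 of the 9 genes were tested, and 0 passed an adjusted p of 0.05, where 0.0211% of the 9483 genes tested passed. In Tip ECs 0 of 6 passed (0.0181% of 5510 genes), in Structural ECs 0 of 6 (0.0264% of 7577) and in Proliferative ECs 0 of 6 (0.0217% of 4607). In Mural cells (0 of 3), Neuroglia (0 of 3), Neurons (0 of 1) and rods (0 of 2) the share of all genes that passed was 0%. DESeq2 called 0 of these genes in any cell type. At an unadjusted p under 0.05, edgeR gave 0 of 7 in all ECs (5.78% of all genes tested), 0 of 6 in Tip (4.92%), Structural (5.56%) and Proliferative ECs (6.32%), and 1 of 3 in Mural cells (6.03%). DESeq2 gave 1 of 6 in Tip ECs and 0 of those tested in the other cell types. Vegfa and Vegfb were too low to be tested in ECs, Vegfc in Tip ECs, and Pgf in Structural and Proliferative ECs. None was tested in Immune and Optc+ cells, and Cones could not be fitted.

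The receptor with the clearest separation was Flt1. In Tip ECs it averaged 2194 ± 135 CPM (SD over 3 replicates) where labelled eNOS+/+ and 1613 ± 234 CPM where labelled eNOS-/-, and all 3 eNOS-/- values lay below all eNOS+/+ values, as was so in either direction for 10.3% of the genes tested in Tip ECs. The log2 fold change was -0.45 (SE 0.24, 95% interval -0.93 to 0.038, edgeR adjusted p = 0.985). In all ECs the values were 1523, 1619 and 1663 CPM against 1404, 1140 and 1458 CPM, again without overlap (10.4% of the genes tested), with a log2 fold change of -0.27 (-0.70 to 0.16, edgeR adjusted p = 0.929). In Structural and Proliferative ECs the groups overlapped, with log2 fold changes of -0.16 and -0.20. In Neuroglia the estimate was -0.54. In Mural cells it was -0.92 (edgeR adjusted p = 0.832), with 744 and 521 CPM against 356, 429 and 135 CPM. In the same sums the EC marker Cldn5 had 248 and 208 CPM against 79.1, 135 and 62.2 CPM. The EC marker Cdh5 (10.4 to 221 CPM) overlapped between the genotypes there, and the part of EC RNA in the difference was not tested. None of these differences of Flt1 passed the test, and the intervals do not exclude 0.

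Kdr differed little. In all ECs the eNOS+/+ replicates averaged 892 ± 27.9 CPM and the eNOS-/- replicates 838 ± 138 CPM (SD over 3). This is a log2 fold change of -0.094 with an interval of -0.52 to 0.33, so differences within that interval were not excluded. The log2 fold change was -0.074 for Tip, -0.031 for Structural and -0.079 for Proliferative ECs. The lowest of the 6 values, 702 CPM, came from eNOS-/- replicate 3, the smallest library. In Neuroglia the log2 fold change of Kdr was 0.30, with an interval from -0.98 to 1.58.

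The log2 fold change of Flt4 was 0.11 for Tip, -0.054 for Structural and -0.57 for Proliferative ECs (SE 0.39, edgeR adjusted p = 0.884). The last comes with 140, 67.5 and 86.8 CPM against 59.8, 86.2 and 12.8 CPM, which overlap.

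Nrp1 varied in its estimate between cell types. In Structural ECs it had 284, 154 and 181 CPM in eNOS+/+ and 306, 303 and 262 CPM in eNOS-/-, a log2 fold change of 0.48 (SE 0.25, edgeR adjusted p = 0.901), and the groups overlapped. In Tip ECs the estimate was -0.13 (-0.79 to 0.52) and in Proliferative ECs 0.018. The genotype difference was compared between the EC subtypes in a model over the 18 sums with library and subtype as terms. Nrp1 had the smallest p of the 7 genes tested (unadjusted p = 0.059 in edgeR, adjusted p = 1), and 0 of 7 passed, as did 0% of the 7019 genes tested, of which 240 had an unadjusted p under 0.05.

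In Mural cells Nrp1 had 199 and 69.4 CPM in eNOS+/+ and 343, 466 and 207 CPM in eNOS-/-. The groups did not overlap, as was so for 26% of the genes tested with these 2 and 3 sums. The log2 fold change was 1.53 (SE 0.64, 95% interval 0.20 to 2.86, unadjusted p = 0.026, edgeR adjusted p = 0.767). The eNOS+/+ values rest on 4 and 2 UMIs. EC markers other than Pecam1 were found in 38 of the 46 Mural cells with Nrp1. The EC marker Cdh5 had 149 and 34.7 CPM in the eNOS+/+ sums and 26.4, 221 and 10.4 CPM in the eNOS-/- sums. Cldn5, given above, was lower in all eNOS-/- sums than in the eNOS+/+ sums. The part of EC RNA in the difference of Nrp1 was not tested.

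Nrp2 had 135, 139 and 150 CPM in all ECs of eNOS+/+ and 121, 132 and 117 CPM in those of eNOS-/-. The groups did not overlap, as for 10.4% of the genes tested, and the difference was small (log2 fold change -0.20, SE 0.19, edgeR adjusted p = 0.952). In each subtype the groups overlapped, with log2 fold changes of -0.097 (Tip), -0.24 (Structural) and -0.19 (Proliferative).

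Of the ligands, Vegfa in Neuroglia averaged 1951 ± 1218 CPM over the 3 eNOS+/+ replicates (SD) and 2457 ± 180 CPM over the 2 of eNOS-/-. The log2 fold change of 0.41 had an interval of -0.69 to 1.52 (edgeR adjusted p = 0.919), and both eNOS-/- values lay within the eNOS+/+ range. In Neurons it was -0.076 (-1.23 to 1.08). Pgf in all ECs had 24.3, 7.62 and 26.3 CPM against 22.5, 32.2 and 47.1 CPM, a log2 fold change of 0.60 (SE 0.40, edgeR adjusted p = 0.908), and 0.35 in Tip ECs. The 47.1 CPM came from eNOS-/- replicate 3, whose Structural ECs had 37.4 CPM. The Mural marker Rgs5 ranged from 6.06 to 1761 CPM over the sums of all ECs, and the part of Mural RNA in this difference was not tested. Vegfc had a log2 fold change of -0.37 in all ECs (SE 0.38, edgeR adjusted p = 0.964). In Proliferative ECs the fitted log2 fold change of Vegfc was -0.63, although the mean CPM was higher in eNOS-/- (49.7 ± 57.0) than in eNOS+/+ (41.9 ± 11.3). The highest value, 115 CPM, rests on 9 UMIs of the smallest library.

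**Figure D5:**
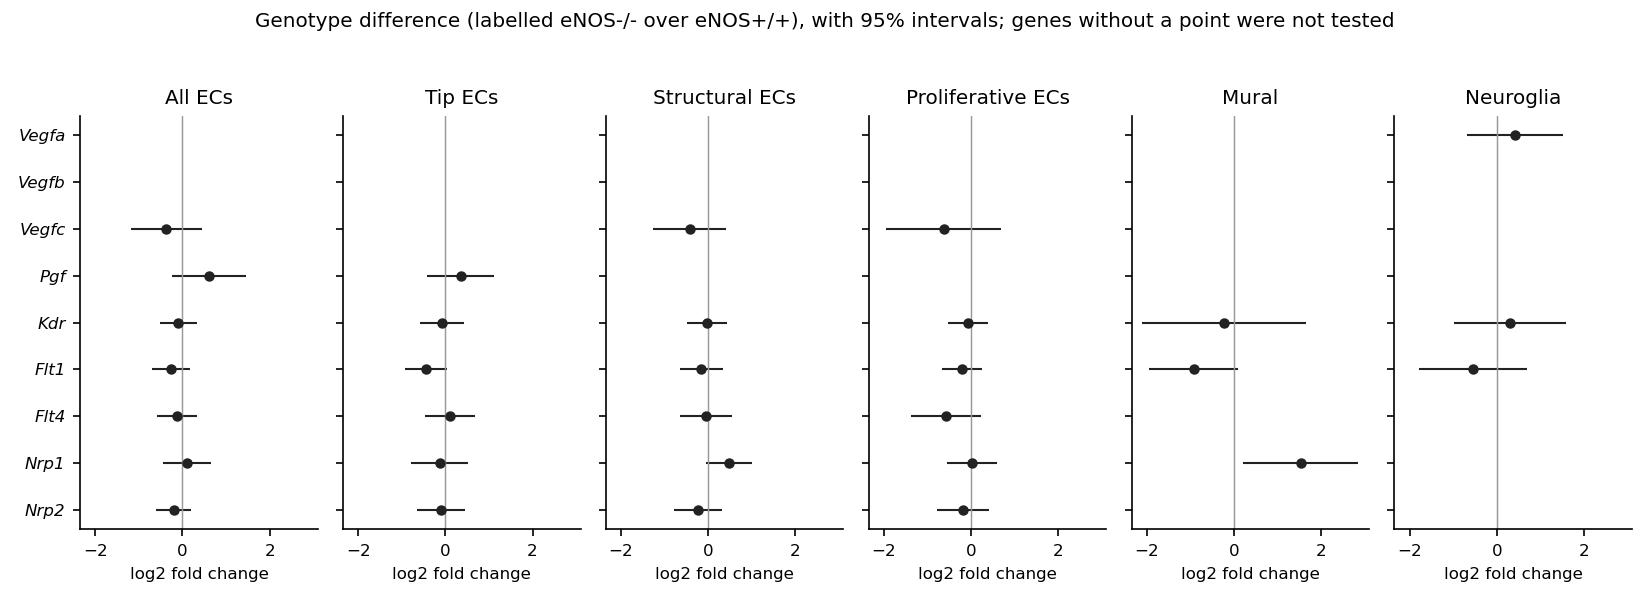
Log2 fold change (labelled eNOS-/- over labelled eNOS+/+) of each gene with its 95% interval in all ECs, the EC subtypes, Mural cells and Neuroglia. All intervals include 0 except that of Nrp1 in Mural cells (0.20 to 2.86), and no difference passed the adjusted test.

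Genes that act below the receptors were taken from a list of 71 VEGF signalling genes, of which 70 are in the table. In all ECs 62 were tested and 0 passed (0.0211% of all genes), with 35 above and 27 below 0 and a median log2 fold change of 0.023, beside 0.0077 over all genes tested. At an unadjusted p under 0.05, 0 were higher and 2 lower in eNOS-/-, where 5.78% of all genes tested had such a p. Tip ECs had 0 of 49 passed, 0 higher and 4 lower at the unadjusted p (4.92% of all genes), and a median of -0.084 beside -0.0060. Structural ECs had 0 of 55 passed, 1 higher (Apln) and 2 lower at the unadjusted p (5.56% of all genes), and a median of 0.055 beside 0.015, and Proliferative ECs 0 of 38 passed, 1 higher (Braf) and 1 lower (Hspb1) at the unadjusted p (6.32% of all genes), and a median of -0.18 beside 0.011. The 4 lower genes in Tip ECs were Hras, Map2k2, Mapkapk2 and Hspb1, and they, Apln and Braf were named after their values were seen. Log2 fold changes above 0 were found for 51.1% of all genes in all ECs, 49.3% in Tip, 51.4% in Structural and 51.2% in Proliferative ECs. In the same order they were found for 13 of 19, 8 of 15, 13 of 17 and 7 of 14 genes that act close to the receptors. For the signalling cascades the counts were 12 of 30, 6 of 25, 13 of 26 and 4 of 19, and for target genes 10 of 13, 4 of 9, 7 of 12 and 1 of 5.

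Among the list genes of smallest p in all ECs were Hras, a GTPase that starts the MAP kinase cascade, and Akt1, a kinase that phosphorylates eNOS. Hras averaged 56.0 ± 6.14 CPM where labelled eNOS+/+ and 31.1 ± 10.3 CPM where labelled eNOS-/- (SD over 3 replicates), a log2 fold change of -0.97 (SE 0.28, edgeR adjusted p = 0.712). Akt1 had a log2 fold change of -0.49 (edgeR adjusted p = 0.877). For both the groups did not overlap in all ECs, as was so for 10.4% of genes, and neither passed the test.

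Genes with the most similar pattern over the 10 cell types were sought by Pearson's r of mean log2(CPM + 10) among 12590 genes. The closest to Kdr were Cav2, a caveolin (r = 0.98), and Flt1 (r = 0.97), and Kdr was the closest to Flt1. Flt4 was closest to Dll4, the Notch ligand of tip cells (r = 0.997), Nrp2 to Plxnd1, a semaphorin receptor (r = 0.99), and Nrp1 to Gab1, an adaptor of receptor kinases (r = 0.97). Pgf was closest to Kctd11 (r = 0.97), Vegfc to Rbp7, a retinol-binding protein of endothelium (r = 0.96), Vegfa to Appl2 (r = 0.98) and Vegfb to Mlana (r = 0.93). With 10 points that share libraries and 3 of them ECs, such values are easily reached, so they describe these data only. Of the 27 pairs of a gene and its 3 closest, 4 were kept under both other settings tried, namely Cav2 with Kdr, Plxnd1 with Nrp2, Kctd11 with Pgf and Rbp7 with Vegfc.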

How the data were processed

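Drop-seq libraries came from pooled retinas after CD31 enrichment. The authors used kb-python and GRCm38 for alignment, set limits of 100 genes and 10% mitochondrial UMIs per cell, named cell types on integrated data and EC subtypes on data without integration, and deposited a table of raw UMI counts with an annotation of each cell. Submitters' processing notes also list bcl2fastq and Seurat 3. No batch correction is in the counts. Of the annotation, 13 columns were not used. How doublets were treated before deposit is not given in the sources used here, and no caller was run. Replicates of the same genotype shared 0 barcodes, and 3 barcodes were shared across genotypes.

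UMIs were summed per cell type and replicate, and sums of at least 10 cells were used. Each sum was treated as a replicate, as the pools of retinas were separate. Genotypes were compared with edgeR 4.0.16 (filterByExpr, TMM, quasi-likelihood test, two-sided, Benjamini-Hochberg limit of 0.05), with DESeq2 1.42.0 as an alternative, in R 4.3.3. Intervals are 95% intervals from the standard error and the degrees of freedom of the test. The other alternatives were RLE scaling, no filter, each replicate left out, a replicate block, cells of at least 500 UMIs and mitochondrial genes removed. For shares, cells with at least 500 UMIs were drawn down to 500 (4861 cells were kept) or barcode families were counted as 1 cell. Descriptions were made in Python 3.11.15 (pandas 2.3.3, numpy 2.4.6, scipy 1.17.1), and plots with matplotlib 3.10.9. The models were tested on simulated data. Coordinates are those of the GENCODE annotation of GRCm38.

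Genes named are the 9 family genes, Nos3, marker genes of cell types, the 3 genes most like each member, and from the list of VEGF signalling genes the 3 of smallest p in all ECs and any called. Of the genes under this rule, 2 are not reported here. The 9 genes and all lists were chosen with earlier results of these data known.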

Additional observations from a re-analysis of the deposited data

How the results depend on the processing

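Under every alternative run, 0 of the 9 genes passed the adjusted test in any cell type, including the fit with a replicate block, in which 0 were called. Replicate numbers were not taken to pair the samples, since the deviations of same-numbered replicates in all ECs correlated at 0.13, -0.070 and 0.11. Directions of log2 fold changes were followed for the genes tested in ECs and for Vegfa in Neuroglia and Neurons. They were not followed for other genes outside ECs, such as Nrp1 in Mural cells. The direction held in 160 of 162 values under settings other than leaving out a replicate. The exceptions were Nrp1 in Proliferative ECs with DESeq2 (-0.016) and Vegfa in Neurons without the filter (0.15). Leaving out a replicate turned the direction of 12 estimates. For Kdr the range was -0.20 to 0.0054 in all ECs, -0.25 to 0.10 (Tip), -0.15 to 0.028 (Structural) and -0.18 to 0.025 (Proliferative). For Nrp1 it was -0.13 to 0.46 in all ECs, -0.40 to 0.46 (Tip) and -0.29 to 0.23 (Proliferative). Nrp2 in Tip ECs had -0.18 to 0.025, Flt4 -0.051 to 0.23 in Tip and -0.26 to 0.0998 in Structural ECs, Vegfc in Proliferative ECs -1.27 to 0.15, and Vegfa in Neurons -0.43 to 0.67. Flt1 in Tip ECs stayed between -0.56 and -0.37.

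The mean levels given for the cell type where each gene is highest moved by less than 1 SD. Shares of cells with a UMI changed when only cells of at least 500 UMIs were kept and drawn down to 500, to 60.2% for Vegfa in Neuroglia, 1.12% for Vegfc in Proliferative ECs, 4.08% for Pgf in Mural cells and, in Tip ECs, 37.5% for Kdr, 52.9% for Flt1, 6.87% for Flt4, 19.7% for Nrp1 and 8.62% for Nrp2. With barcode families as cells, the Tip EC shares were 61.7% for Kdr, 74.9% for Flt1, 21.8% for Flt4, 43.3% for Nrp1 and 23.3% for Nrp2. Leaving out a replicate gave 3.64% to 5.42% for Vegfc in Proliferative ECs, 69.7% to 76.0% for Flt1 and 17.9% to 21.5% for Nrp2 in Tip ECs, where eNOS-/- replicate 2 moved all 3 shares most. Of the 27 pairs of most alike genes, 13 were kept with a pseudocount of 1 CPM and 7 with sums of fewer than 10 cells kept. The depth limits Vegfb, Vegfc and Pgf, which had few UMIs, and the sums of few cells outside ECs.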
